A study of Mus musculus with 42 samples.

Results

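Regulatory CD4+ T cells (Treg) kept in culture with an antibody against CD3 were followed from 24 to 72 h, and the 4 arrays of those times, 2 per time, were chosen by their titles out of the 42 arrays of the series. The series followed Treg and conventional CD4+ T cells (Tconv) from the spleens of NOD mice, in which autoimmune diabetes arises, at 0, 2, 8, 24 and 72 h of exposure to KT3, which binds CD3 and so triggers the T cell receptor. Affymetrix ST1.0 arrays measured the RNA by means of short probes along each transcript. The Treg 72 h and 24 h groups in culture came from splenocytes of mice with the genotype given as Foxp3-IREs-GFP+/+, in which green fluorescent protein (GFP) reports Foxp3, cultured with KT3 at 1.25 µg/ml before the sort. In each of these groups the array numbered 1 came from a female mouse of 9 weeks and the array numbered 2 from a male mouse of 14 weeks, and the number therefore also stands for sex and age. Tconv of the same design at 72 and 24 h (4 arrays) and Treg sorted 72 and 24 h after KT3 had been injected into Foxp3-IRES-GFP females of 8 weeks (4 arrays) were the cells set beside them. The gate was CD4+ cells negative for B220, CD8a, CD11b and CD11c, taken from cultures of whole splenocytes. For the cultured Treg the labels give the gate as GFP negative, although the titles name the cells Treg.

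Resting T cells that receive a signal through their receptor first grow and then enter the cell cycle. In the G1 phase cyclin-dependent kinases free the E2F factors, which switch on genes for DNA replication, and later the MuvB complex together with B-Myb and FoxM1 switches on the genes for mitosis through short promoter elements known as CHR. Treg are known to depend on interleukin 2 from other cells for growth in culture, and Foxp3 maintains their identity and suppressive function.

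Foxp3 separated the cells by their titles: it lay at 11.88 and 11.82 log2 intensity in Treg at 72 h and at 12 and 11.89 at 24 h in culture, against 7.73 and 7.21 at 72 h and 7.62 and 7.38 at 24 h in Tconv. The T cell genes Cd3e and Cd4 were at 11.13 and 11.05 and at 11.19 and 11.08 at 72 h, against 11 and 10.84 and 10.94 and 10.6 at 24 h. Markers of B cells and of macrophages and monocytes, which the gate should remove, were low on all 4 arrays. Summed linear intensities of the B cell markers were 586 and 530 at 72 h, against 650 and 592 at 24 h, and those of macrophage and monocyte markers 689 and 699, against 591 and 560. Dendritic cell markers, Bst2 among them, summed to 1092 and 853 at 72 h, against 1418 and 1457 at 24 h. The NK cell markers, Eomes among them, summed to 942 and 789, against 663 and 614. For comparison the mitosis genes described below summed to 40676 and 35368 at 72 h, against 9267 and 9347 at 24 h. That sum covers 62 genes, against 9 each for the B cell and the macrophage and monocyte markers. None of the 43 tested markers of other cells was called except Bst2, which is also an interferon-stimulated gene. The differences that were not called ran from -0.85 (Ms4a1) to 1.66 (Jchain). Because these are bulk samples, fewer cells that express a gene and less RNA of it per cell cannot be told apart. In culture the 2 arrays of a group came from different mice, which also differed in sex and age, so their variation includes that between mice. The labels do not say whether same-numbered arrays of the 2 times share a mouse or a culture. The p-values cover no more than the variation among these samples, part of which may be technical.

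Between 24 and 72 h the cultured Treg gained RNA of most tested genes of mitosis, replication-dependent histones and DNA replication, and lost RNA of many interferon-stimulated genes and of some genes of the Treg signature. A gene was counted as having risen or fallen (called) when the Benjamini-Hochberg adjusted p of limma's moderated test, in a model with the array number as a block, was under 0.05 over the 12425 genes tested. Differences are log2 values of 72 h minus 24 h ± SE with 2 arrays per time. Of the 12425 genes 692 were called (5.57%), of which 443 were higher (3.57%) and 249 lower (2.0%) at 72 h, and 406 differed at least 2-fold. Among the rises 30 were at least 8-fold, and among the falls 3. Without array 1 of 72 h the count was 286, and without array 1 of 24 h it was 311, while it was 516 without array 2 of 72 h and 489 without array 2 of 24 h. One array outside the comparison, number 1 of Tconv in culture at 0 h, correlated least with the rest of the series (mean 0.787), and without it 1199 genes were called. The median difference over all genes tested was -0.01.

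**Figure D1:**
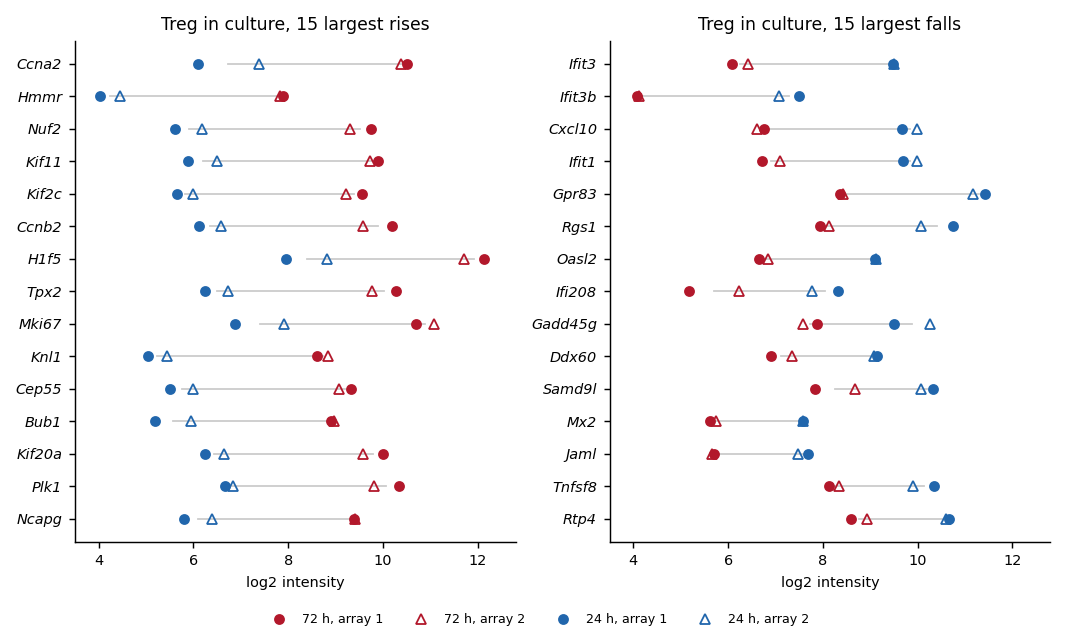
Log2 intensity of the 15 genes with the largest rise (left) and the 15 with the largest fall (right) in cultured Treg, with red symbols for 72 h, blue symbols for 24 h, filled circles for array 1, open triangles for array 2, and a grey line between the means. Genes were chosen among those whose times do not overlap, and the 24 h values of array 1 lie below those of array 2 in all 15 rises.

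The genes of mitosis rose almost without exception. Of 62 tested members of a list of 63, 59 rose and none fell, where 3.57% of all genes tested rose, and the median difference was 2.54. In 61 members both 72 h arrays lay above both 24 h arrays, which was the case for 23.7% of all genes tested. The rises ran from 1.06 to 3.71, with 46 of at least 4-fold and 21 of at least 8-fold. The step was larger on the arrays numbered 1, where its median was 2.80, than on those numbered 2, where it was 2.24, and 49 of the 62 genes had the higher 24 h value on array 2. Without any 1 of the 4 arrays 55 or 56 members rose. At 24 h many of these genes were dim: 33 of the 59 lay below the array's median (6.45 and 6.56 log2 intensity) on both arrays. The deposited table holds no detection calls, so for these genes the difference is one of deposited values, and their order by size is uncertain. Whether their 24 h values are background was not tested. With a stricter filter on dim genes (above the median on at least 4 arrays and a mean over all arrays of at least 8 log2) 5 members were tested and 3 rose.

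Among the regulators, Ccna2, cyclin A2, which drives S phase and entry into mitosis, measured 10.51 and 10.39 at 72 h, against 6.09 and 7.38 at 24 h. This was the largest difference by deposited values (3.71 ± 0.33, adjusted p = 2.81e-08), and the wide gap between the 24 h arrays did not bring them near the 72 h level. Ccnb2, cyclin B2, stood at 10.2 and 9.58 at 72 h, against 6.11 and 6.59 at 24 h (3.54 ± 0.21, adjusted p = 8.52e-11). The mitotic kinase Plk1 reached 10.34 and 9.81 at 72 h, against 6.67 and 6.83 at 24 h (3.32 ± 0.24, 9.99-fold). In each of these regulators the 2 arrays of 72 h were far above those of 24 h.

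Spindle and kinetochore genes rose by as much. Nuf2, a subunit of the kinetochore complex that grips microtubules, was at 9.74 and 9.31 at 72 h, against 5.61 and 6.19 at 24 h (3.62 ± 0.28, adjusted p = 2.5e-09). Hmmr, a protein of the spindle poles, was near the bottom of the scale at 24 h with 4.04 and 4.45, against which it had 7.9 and 7.83 at 72 h (3.62 ± 0.25), a difference from a level that may be background. Kif11, the kinesin that pushes the spindle poles apart, measured 9.89 and 9.72 at 72 h, against 5.89 and 6.5 at 24 h (3.61 ± 0.31). Kif2c, a kinesin that shortens microtubules, measured 9.56 and 9.23, against 5.65 and 5.99 (3.58 ± 0.27). The spindle assembly factor Tpx2 (3.53 ± 0.26), the kinetochore scaffold Knl1 (3.48 ± 0.39) and the checkpoint kinase Bub1 (3.36 ± 0.36) lay in the same range. So did Cep55 (3.46 ± 0.27) and Kif20a (3.36 ± 0.20), which act when the daughter cells part, and Ncapg (3.30 ± 0.31), a subunit of the condensin complex that compacts chromosomes. Mki67, the gene of the proliferation marker Ki-67, measured 10.7 and 11.07 at 72 h, against 6.88 and 7.92 at 24 h (3.49 ± 0.27, 11.2-fold, adjusted p = 2.41e-09). All of these kept their call without any 1 of the 4 arrays.

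A few members departed from the rest. Melk, a kinase of dividing cells, was already at 8.57 and 8.7 at 24 h, against which it had 9.25 and 8.75 at 72 h (0.37 ± 0.26, adjusted p = 0.574). Bub3, a checkpoint protein, had 10.57 and 10.23 at 72 h and 10.1 and 9.97 at 24 h (0.37 ± 0.24, adjusted p = 0.526). Smc4, the ATPase of condensin, had 10.48 and 11.25 at 72 h, against 11.32 and 10.77 at 24 h, and was the 1 member with overlapping groups and a negative difference (-0.18 ± 0.57). Smc2 (1.6 ± 0.43), Kif18a (1.55 ± 0.35), Kif20b (1.34 ± 0.39) and Plk4 (1.07 ± 0.30), named here after their values were seen, were called but lost the call when some of the arrays were left out, and all but Kif18a also without the block.

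Many promoters of the rising mitosis genes shared a short sequence. Because 59 of the 62 tested members rose, the shares given here describe the list of mitosis genes and are no test of their rise. RefSeq promoters (250 bases before and 50 after the annotated start, GRCm38.p6) were at hand for 49 of the 59 genes, and 37 of them (75.5%) held TTTGAA or TTCGAA, the core of the CHR element, on either strand. Among all genes tested 1353 of 9919 promoters (13.6%) held it, and among all 27025 promoters 19.4%. CCAAT, the box bound by NF-Y, stood in 36 of the 49 (73.5%), against 38.3% of the promoters of the genes tested. The letters of these motifs do not contain one another, and a match describes the sequence and not a bound site. The 5 mitosis genes with the largest rise that held the CHR core are shown 5′ to 3′ on the strand of the gene because each holds it within the window, some near the start and some well before it, with the core or its reverse complement in capitals. They are Hmmr (chr11:40733388-40733687, minus strand, position 9 counted from the start), Kif11 (chr19:37376132-37376431, plus strand, position -19), Kif2c (chr4:117178723-117179022, minus strand, position -103), Ccnb2 (chr9:70421505-70421804, minus strand, positions -167 and 5) and Mki67 (chr7:135716330-135716629, minus strand, positions -116 and -98).
Hmmr: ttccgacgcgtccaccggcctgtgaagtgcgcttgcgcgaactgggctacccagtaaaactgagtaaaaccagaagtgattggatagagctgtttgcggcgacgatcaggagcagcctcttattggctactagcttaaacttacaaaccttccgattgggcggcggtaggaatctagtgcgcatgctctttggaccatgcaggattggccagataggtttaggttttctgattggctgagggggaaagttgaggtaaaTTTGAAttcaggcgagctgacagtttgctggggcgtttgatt
Kif11: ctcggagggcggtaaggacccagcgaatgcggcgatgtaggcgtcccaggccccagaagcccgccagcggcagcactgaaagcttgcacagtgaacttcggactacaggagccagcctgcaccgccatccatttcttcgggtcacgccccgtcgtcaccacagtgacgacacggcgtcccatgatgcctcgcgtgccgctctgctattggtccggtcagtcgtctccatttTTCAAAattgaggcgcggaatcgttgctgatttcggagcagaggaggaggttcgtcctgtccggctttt
Kif2c: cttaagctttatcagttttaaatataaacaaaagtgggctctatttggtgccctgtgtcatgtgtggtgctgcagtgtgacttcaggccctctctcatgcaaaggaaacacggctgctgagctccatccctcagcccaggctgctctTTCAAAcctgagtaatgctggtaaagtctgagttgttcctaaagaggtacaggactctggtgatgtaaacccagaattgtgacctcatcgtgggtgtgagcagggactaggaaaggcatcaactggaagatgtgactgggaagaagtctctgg
Ccnb2: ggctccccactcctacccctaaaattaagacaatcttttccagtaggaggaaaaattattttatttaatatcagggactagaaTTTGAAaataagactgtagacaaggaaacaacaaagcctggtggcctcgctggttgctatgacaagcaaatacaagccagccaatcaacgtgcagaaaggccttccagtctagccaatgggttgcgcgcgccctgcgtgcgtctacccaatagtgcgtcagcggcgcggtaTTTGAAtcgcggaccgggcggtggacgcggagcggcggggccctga
Mki67: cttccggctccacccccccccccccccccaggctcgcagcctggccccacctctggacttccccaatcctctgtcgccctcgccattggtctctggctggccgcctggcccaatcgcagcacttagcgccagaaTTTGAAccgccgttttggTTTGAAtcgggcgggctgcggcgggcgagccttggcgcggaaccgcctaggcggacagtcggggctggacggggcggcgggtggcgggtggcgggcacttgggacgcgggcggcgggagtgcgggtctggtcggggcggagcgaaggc

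Genes of DNA replication rose less and less evenly. Of 46 tested members of a list of 47, 32 rose and none fell, with a median difference of 1.00, rises from 0.55 to 2.71, and both 72 h arrays above both 24 h arrays in 45. Of all genes tested 3.57% rose, and 23.7% had both 72 h arrays above both 24 h arrays. Rrm2, the subunit of ribonucleotide reductase that is made for S phase, measured 10.45 and 9.93 at 72 h, against 6.99 and 7.97 at 24 h (2.71 ± 0.28, adjusted p = 2.77e-07). Tyms, thymidylate synthase, stood at 9.24 and 8.87 at 72 h, against 6.68 and 7.17 at 24 h (2.13 ± 0.26). The polymerase subunit Pole measured 8.97 and 8.8 at 72 h, against 6.83 and 7.2 at 24 h (1.87 ± 0.24), and Mcm10 8.8 and 8.29 at 72 h, against 6.49 and 7.01 at 24 h (1.80 ± 0.26). For all 4 of these the 2 times did not overlap. The 6 subunits of the MCM helicase, named here after their values were seen, differed by 0.53 (Mcm4) to 1.26 (Mcm7), and Mcm3, Mcm5, Mcm6 and Mcm7 rose, while Mcm2 (adjusted p = 0.0515) and Mcm4 (adjusted p = 0.485) were not called. Pcna, the sliding clamp of the polymerases, was at 11.43 and 11.39 at 72 h, against 10.42 and 10.64 at 24 h (0.88 ± 0.30, adjusted p = 0.106). The count of 32 fell to 11 without array 1 of 72 h and to 12 without array 1 of 24 h, and was 20 without the block. The step was larger on the arrays numbered 1 (median 1.27) than on those numbered 2 (median 0.72), in 45 of the 46 genes.

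An E2F-type sequence (TTTCCCGC, TTTCGCGC or TTTGGCGC on either strand) stood in 9 of 29 promoters of the rising replication genes (31.0%), in 5 of 49 of the rising mitosis genes (10.2%) and in 3.62% of the genes tested, while the CHR core stood in 6 of the 29 (20.7%). E2F factors are known to switch on replication genes, so these shares describe the lists and are no test of the rise. The replication genes with the largest change that held the E2F-type sequence are shown with it in capitals, to set beside the mitosis promoters above. They are Clspn, whose protein couples stalled forks to the checkpoint (chr4:126556730-126557029, plus strand, position 22), and Cdc6, which loads the helicase (chr11:98907901-98908200, plus strand, position -138).
Clspn: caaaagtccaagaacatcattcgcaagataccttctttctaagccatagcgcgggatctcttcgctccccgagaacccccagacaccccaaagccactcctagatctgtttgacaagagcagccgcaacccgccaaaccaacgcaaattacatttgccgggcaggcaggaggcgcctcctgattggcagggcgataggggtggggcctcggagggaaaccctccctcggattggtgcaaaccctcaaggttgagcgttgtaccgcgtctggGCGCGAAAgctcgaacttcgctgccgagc
Cdc6: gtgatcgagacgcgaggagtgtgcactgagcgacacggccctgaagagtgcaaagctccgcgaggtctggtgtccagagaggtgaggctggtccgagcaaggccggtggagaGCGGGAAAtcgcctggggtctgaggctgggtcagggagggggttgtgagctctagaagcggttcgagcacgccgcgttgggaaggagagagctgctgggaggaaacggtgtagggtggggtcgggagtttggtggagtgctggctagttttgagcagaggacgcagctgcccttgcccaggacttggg

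Clspn measured 8.13 and 7.85 at 72 h, against 6.1 and 6.32 at 24 h (1.78 ± 0.27, adjusted p = 7.46e-05). Cdc6 measured 9.32 and 9.01 at 72 h, against 7.05 and 8.09 at 24 h (1.59 ± 0.30, adjusted p = 0.000909). The 24 h value of Cdc6 on array 2 lay closer to the 72 h level than that on array 1, and Cdc6 lost its call without array 1 of either time.

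Histone genes that are expressed with replication rose strongly. Of 49 listed, 21 had a transcript cluster of their own, 17 were tested, and 15 rose (median 1.79, 0.84 to 3.53), where 3.57% of all genes tested rose. The linker histones H1f5, at 12.14 and 11.71 at 72 h, against 7.96 and 8.83 at 24 h (3.53 ± 0.32), and H1f1, at 11.52 and 11.17, against 7.83 and 8.37 (3.25 ± 0.28), led them. The core histones H2ac4 (3.08 ± 0.31) and H2bc3 (3.06 ± 0.28) followed. H1f2 was not called (0.04 ± 0.28). The 4 members removed as dim are not counted here, and lay between 4.1 (H2bc4) and 6.37 (H1f3) at 72 h, against 3.64 (H2ac8) to 4.97 (H1f3) at 24 h. Histone genes are near-identical copies of one another, so that their probes may read each other's RNA and their values are not independent.

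Genes of recombination repair and the checkpoint rose in 14 of 19 tested (median 1.33), where 3.57% of all genes tested rose and 2.0% fell. They were led by Fancd2 of the Fanconi pathway, at 8.19 and 7.57 at 72 h, against 5.41 and 5.67 at 24 h (2.34 ± 0.27). Rad54l, which acts in strand exchange (2.16 ± 0.27), Brip1, a helicase partner of Brca1 (1.88 ± 0.27), and Dtl, which marks replication proteins for destruction (1.85 ± 0.33), also rose. In contrast Atm, Atr and Mdc1, which sense and relay breaks, had differences of -0.32, -0.43 and -0.48 and were not called. Of 20 genes of G1 control 6 rose and 1 fell. The kinase partners Cks2 (2.42 ± 0.23) and Cks1b (2.18 ± 0.26), the inhibitor Cdkn2c, at 8.86 and 8.21 at 72 h, against 6.24 and 6.93 at 24 h (1.95 ± 0.27), and cyclin E2, Ccne2 (1.83 ± 0.33), had the largest rises. Cdk6, a kinase of early G1, was the fall, with 8.7 and 8.48 at 72 h, against 9.66 and 9.78 at 24 h (-1.13 ± 0.24, adjusted p = 0.00315), and its adjusted p was 0.0818 without array 2 of 72 h. Of 20 E2F, Rb and MuvB regulators 6 rose, or 3 without array 1 of either time. Foxm1, which drives mitotic genes, was at 8.54 and 8.16 at 72 h, against 6.21 and 6.29 at 24 h (2.10 ± 0.16, adjusted p = 3.03e-09). The repressor E2f8 was at 8.33 and 8.22, against 5.39 and 6.43 (2.36 ± 0.33), E2f2 rose by 1.55 ± 0.23, and Mybl2, which encodes B-Myb, by 1.30 ± 0.27, with an adjusted p of 0.127 without array 1 of 72 h and 0.131 without array 1 of 24 h. The subunits of MuvB itself were not among the called genes.

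Metabolic genes moved in a few places, where 3.57% of all genes tested rose and 2.0% fell. Scd2, which desaturates fatty acids, measured 10.92 and 11.59 at 72 h, against 7.99 and 8.75 at 24 h (2.88 ± 0.31, adjusted p = 4.65e-07), the largest of 4 rises among 27 genes of cholesterol and fatty acid synthesis. That count was 2 without the block, without array 2 of 72 h or without array 2 of 24 h, 3 without array 1 of 72 h and 1 without array 1 of 24 h, and Scd2 was called in all of these. Of 18 glycolysis genes 7 rose, or 2 without array 1 of 72 h and 3 without array 1 of 24 h. The lactate exporter Slc16a3 was at 10.8 and 10.12 at 72 h, against 8.5 and 8.7 at 24 h (1.86 ± 0.29, adjusted p = 0.000122), and the glucose carrier Slc2a3 at 11.23 and 10.86, against 9.85 and 9.61 (1.32 ± 0.18). None of 29 respiratory chain genes (28 with positive differences, median 0.33), 25 of the ATF4 and amino acid group or 17 aminoacyl-tRNA synthetases was called, where 5.57% of all genes were, too low a share for such counts to set these lists apart. Of 39 ribosome biogenesis genes 38 had negative differences (median -0.57), and 5 fell, of which none was called when any 1 of the 4 arrays was left out.

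Genes of effector function moved both ways. Of 19 Treg suppressive effectors 2 rose and 3 fell (median -0.02), of 10 cytotoxic genes 2 rose and 2 fell (median 0.07), of 11 inhibitory receptors 1 rose and 1 fell (median -0.30), and of 23 genes of the early receptor response 1 rose and 2 fell (median -0.14). Of all genes tested 3.57% rose and 2.0% fell, and counts this small do not set these lists apart. The counts are not separate, because the suppressive effectors share Lag3 with the inhibitory receptors and Gzmb with the cytotoxic genes. They also share Nt5e with the Treg signature list described below. Nkg7, a membrane protein of cytotoxic granules, was at 10.39 and 9.17 at 72 h, against 7.48 and 7.76 at 24 h (2.16 ± 0.31, adjusted p = 2.93e-05). The array numbered 1 was the higher at 72 h, and both 72 h arrays lay above those of 24 h. The NK cell markers summed to 942 and 789 at 72 h, against 663 and 614 at 24 h, most of it from Eomes, which T cells also make and which was at 9.78 and 9.5, against 9.23 and 9.08; their part in the Nkg7 rise was not tested. Lgals1, galectin 1, an inhibitory lectin of Treg, was at 12.24 and 12.04 at 72 h, against 10.43 and 10.68 at 24 h (1.59 ± 0.33), with an adjusted p of 0.00253 that was 0.0617 without array 1 of 72 h and 0.0694 without array 1 of 24 h. Lag3, an inhibitory receptor for MHC class II, was at 9.94 and 9.31 at 72 h, against 8.4 and 8.02 at 24 h (1.42 ± 0.29), with an adjusted p of 0.00225, or 0.0791 without array 1 of 72 h. Nr4a2, the 1 rise in the early receptor response, was at 7.2 and 7.84 at 72 h, against 6.32 and 6.15 at 24 h (1.29 ± 0.22), and the membrane-binding annexin Anxa2 at 10.33 and 9.7, against 8.56 and 8.41 (1.53 ± 0.22).

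The largest falls were of interferon-stimulated genes, which cells switch on when type I or type II interferon reaches them. Of 28 tested members of a list of 34, 17 fell and none rose, where 2.0% of all genes tested fell. The median difference was -0.92, all 28 were negative, and in 27 both 72 h arrays lay below both 24 h arrays, which held for 28.5% of all genes tested. Ifit3 measured 6.08 and 6.42 at 72 h, against 9.48 and 9.51 at 24 h (-3.24 ± 0.47, adjusted p = 3.98e-05). Its relatives Ifit3b (-3.18 ± 0.55) and Ifit1, at 6.71 and 7.1 at 72 h, against 9.69 and 9.98 at 24 h (-2.93 ± 0.54), fell alongside, and near-identical copies in this family may share probes. The antiviral genes Oasl2 (-2.36 ± 0.37) and Rtp4 (-1.87 ± 0.36) and the transcription factor Irf7, at 8.52 and 8.75 at 72 h, against 10.51 and 10.4 at 24 h (-1.82 ± 0.26), also fell. Cxcl10, a chemokine induced by interferon that draws Cxcr3-bearing cells, was at 6.75 and 6.6 at 72 h, against 9.67 and 9.99 at 24 h (-3.15 ± 0.43, 8.9-fold lower, adjusted p = 1.48e-05). At 72 h 5 of the 17 genes, Ifit3 among them, lay below the array's median (6.52 and 6.58) on both arrays. The size of their falls is therefore uncertain too, and whether these 72 h values are background was not tested. The count rested on few arrays: it was 6 without array 1 and 8 without array 2 of 72 h, and 5 without array 1 and 11 without array 2 of 24 h. Ifi208, Ddx60, Samd9l and Mx2, also among the 15 largest falls, each lost the call without array 1 of either time. Their differences were -2.03, -2.06, -2.01 and -1.89 without that of 72 h. Without that of 24 h they were -1.75, -1.63, -1.24 and -1.84. Ddx60 (-1.93) and Samd9l (-1.86) also lost the call without array 2 of 72 h, and Samd9l without the block (adjusted p = 0.178).

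RefSeq promoters were at hand for 12 of the 17 falling genes of the list, and 8 (66.7%) held the core of the interferon-stimulated response element (TTTC, any 2 bases and TTTC again) on either strand, against 2.97% of the promoters of the genes tested. The promoters of Ifit3 (chr19:34583279-34583578, plus strand, positions -156 and -122) and Ifit1 (chr19:34640639-34640938, plus strand, positions -104 and -85) are shown because both carry it in duplicate, in capitals. This motif was chosen after the falls were seen. The list is one of interferon-stimulated genes, so the share describes the list and is no test of the fall. The share among members that did not fall is not given.
Ifit3: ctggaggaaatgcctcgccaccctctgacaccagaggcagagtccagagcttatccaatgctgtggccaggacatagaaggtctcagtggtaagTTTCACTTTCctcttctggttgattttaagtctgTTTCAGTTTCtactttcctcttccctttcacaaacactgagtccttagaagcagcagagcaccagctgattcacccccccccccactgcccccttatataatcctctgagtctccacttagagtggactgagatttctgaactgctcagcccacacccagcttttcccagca
Ifit1: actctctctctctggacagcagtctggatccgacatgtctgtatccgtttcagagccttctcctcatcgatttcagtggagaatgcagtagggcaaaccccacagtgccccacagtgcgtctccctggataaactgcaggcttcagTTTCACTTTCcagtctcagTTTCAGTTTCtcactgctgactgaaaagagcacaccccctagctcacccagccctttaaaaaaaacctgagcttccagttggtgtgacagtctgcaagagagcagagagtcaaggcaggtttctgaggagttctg

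Part of the Treg signature fell, while Foxp3 was not called. Of 27 tested members of a list of 28, 9 fell and none rose (median -0.65), where 2.0% of all genes tested fell. The count was 4 without array 1 and 6 without array 2 of 72 h, and 3 without array 1 and 7 without array 2 of 24 h. Gpr83, a G protein-coupled receptor typical of Treg, measured 8.37 and 8.43 at 72 h, against 11.41 and 11.17 at 24 h (-2.89 ± 0.22, 7.39-fold lower, adjusted p = 2.5e-09). The 2 arrays of each time lay close together, and the gap between the times was far wider. Rgs1, which dampens signals of such receptors, was at 7.94 and 8.12 at 72 h, against 10.75 and 10.06 at 24 h (-2.37 ± 0.46), with an adjusted p of 0.00147 that was 0.0712 without array 1 of 24 h. Ikzf4 (Eos), a repressor that acts with Foxp3, was at 7.88 and 8.09 at 72 h, against 9.47 and 9.19 at 24 h (-1.34 ± 0.22, adjusted p = 0.000145). Only Gpr83 and Ikzf4 of the 9 were called without each of the 4 arrays. Nt5e (CD73), which makes adenosine, fell by 1.27 ± 0.26 and Penk, proenkephalin, by 1.21 ± 0.28. Nt5e lost its call without array 1 of 24 h (-1.0) and without array 2 of 72 h (-1.14). Penk lost its call without array 2 of 24 h (-0.64) and without array 1 of 72 h (-1.1). The semaphorin receptor Nrp1, Ecm1, Lrrc32 (GARP), which holds latent TGF-beta on the Treg surface, and Socs2 fell by 0.93 to 1.06.

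The defining genes were not called. Foxp3 differed by -0.09 ± 0.27 (adjusted p = 0.939), Ctla4 by -0.30 ± 0.29 and Ikzf2 (Helios) by -0.28 ± 0.29. Il2ra (CD25), the high-affinity chain of the interleukin 2 receptor, had 11.3 and 11.55 at 72 h, against 12.16 and 12.01 at 24 h (-0.66 ± 0.29, adjusted p = 0.245), without overlap. Il2 itself stayed at the low end, with 4.79 and 4.9 at 72 h and 4.92 and 4.76 at 24 h. Il7r had 10.01 and 10.52 at 72 h, against 9.98 and 9.88 at 24 h (0.33).

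Some members of the interleukin 2 and NF-kB pathways fell. Of all genes tested 2.0% fell, which is the share to set beside the counts here and that of the cytokine genes below. The lists share members, so that their counts are not separate. Socs2 is on the STAT5 list and the Treg signature list, and Lta is on the STAT5 list and the cytokine list. Of 14 genes of STAT5, the interleukin 2 receptor chains, SOCS feedback and known STAT5 targets 6 fell (median -0.73), or 3 without either array of 72 h or without array 1 of 24 h. Cish, a STAT5 target that restrains the same pathway, was at 8.77 and 8.51 at 72 h, against 10.52 and 10.35 at 24 h (-1.80 ± 0.22, adjusted p = 3.32e-06). Lta, lymphotoxin alpha, was at 6.44 and 6.42 at 72 h, against 8.28 and 8.17 at 24 h (-1.80 ± 0.23, adjusted p = 4.69e-06), and the cytokine Osm fell by 1.10 ± 0.19. In Cish and Lta the arrays of a time lay close together and the times did not overlap. Bcl6, a repressor that STAT5 is known to restrain, had 8.74 and 8.78 at 72 h, against 7.94 and 7.53 at 24 h (1.03 ± 0.31), and missed the threshold with an adjusted p of 0.0529. Of 14 NF-kB subunits and inhibitors 5 fell (median -0.74), or 2 and 3 without array 1 and array 2 of 72 h, and 1 and 4 without array 1 and array 2 of 24 h. Nfkb2, a subunit of the noncanonical pathway, fell by 0.94 ± 0.18 (adjusted p = 0.00124) and was called in each of these settings.

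Of 18 cytokine genes 4 fell and none rose (median -0.25), or 2 without array 1 of 24 h. Tnf was at 8.74 and 8.44 at 72 h, against 10.35 and 9.97 at 24 h (-1.56 ± 0.29, adjusted p = 0.000822). Tnfsf8, the ligand of CD30, was at 8.12 and 8.34 at 72 h, against 10.35 and 9.91 at 24 h (-1.90 ± 0.35), with an adjusted p of 0.000755, or 0.0703 without array 1 of 24 h. Among the suppressive effectors that fell, Cd274 (PD-L1) was at 8.96 and 9.35 at 72 h, against 10.76 and 10.8 at 24 h (-1.63 ± 0.27, adjusted p = 0.000281). Gzmb, granzyme B, was at 9.59 and 9.0 at 72 h, against 10.78 and 10.97 at 24 h (-1.58 ± 0.34), with an adjusted p of 0.00385, or 0.127 without array 2 of 72 h. Gadd45g, a stress-response gene, fell by 2.15 ± 0.26 and Jaml, an adhesion molecule, by 1.90 ± 0.22. Xbp1, a factor of the secretory pathway, fell by 1.09 ± 0.20 and the giant scaffold protein gene Ahnak by 1.04 ± 0.18, both called without each of the 4 arrays. None of 23 T cell receptor signalling genes, 28 lineage and effector transcription factors, 18 activation surface markers, 13 integrin chains, 8 GIMAP GTPases or 12 Tconv-high genes was called, and at 5.57% of all genes called such lists would hold few calls.

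**Figure D2:**
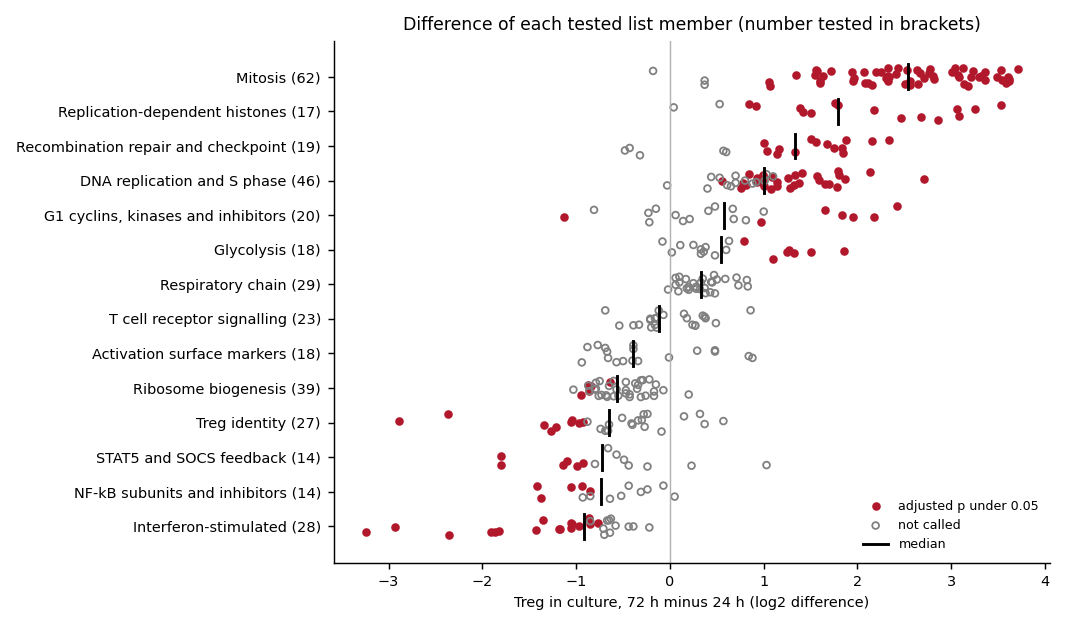
Difference of 72 h minus 24 h (log2) in cultured Treg for each tested member of 14 gene lists, with the number tested in brackets, filled red points for adjusted p under 0.05, open grey points otherwise and a black bar at the median. Medians run from 2.54 for mitosis to -0.92 for interferon-stimulated genes, and points are spread vertically only to keep them apart.

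The full course from 0 to 72 h placed the step. The mean log2 intensity of the 62 mitosis genes in cultured Treg was 6.16 and 6.40 at 0 h, 6.24 on both arrays at 2 h, 6.38 and 6.43 at 8 h, 6.33 and 6.59 at 24 h and 9.03 and 8.81 at 72 h. It thus moved little until 24 h. The replication genes stood at 7.33 and 7.45 at 0 h, 7.58 and 7.36 at 2 h, 7.54 and 7.41 at 8 h, 7.90 and 8.16 at 24 h and 9.30 and 8.98 at 72 h, and were thus already higher at 24 h. Interferon-stimulated genes were at 7.76 and 7.80 at 0 h, 7.80 and 7.59 at 2 h, 10.03 and 10.10 at 8 h, 9.33 and 9.32 at 24 h and 8.10 and 8.24 at 72 h, so that their fall followed a peak at 8 h. All 59 rising mitosis genes lay above their 0 h level on both 72 h arrays, which was the case for 30.3% of all genes tested. Of the 17 falling interferon-stimulated genes 9 still lay above 0 h on both arrays at 72 h, 7 overlapped it and 1 lay below it. Of the 9 falling Treg genes 5 lay below both 0 h arrays at 72 h, where 24.3% of all genes tested did, 3 above them and 1 in between. Gpr83 was among those below, with 10.5 and 10.92 at 0 h, 9.02 and 8.95 at 2 h, 11.22 and 11.06 at 8 h, 11.41 and 11.17 at 24 h and 8.37 and 8.43 at 72 h. Gzmb was among the falls that remained above, with 9.59 and 9.0 at 72 h, against 7.08 and 7.54 at 0 h. Array 1 of Treg at 0 h had one of the 3 narrowest ranges of values in the series, so that comparisons with 0 h are given as positions only.

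**Figure D3:**
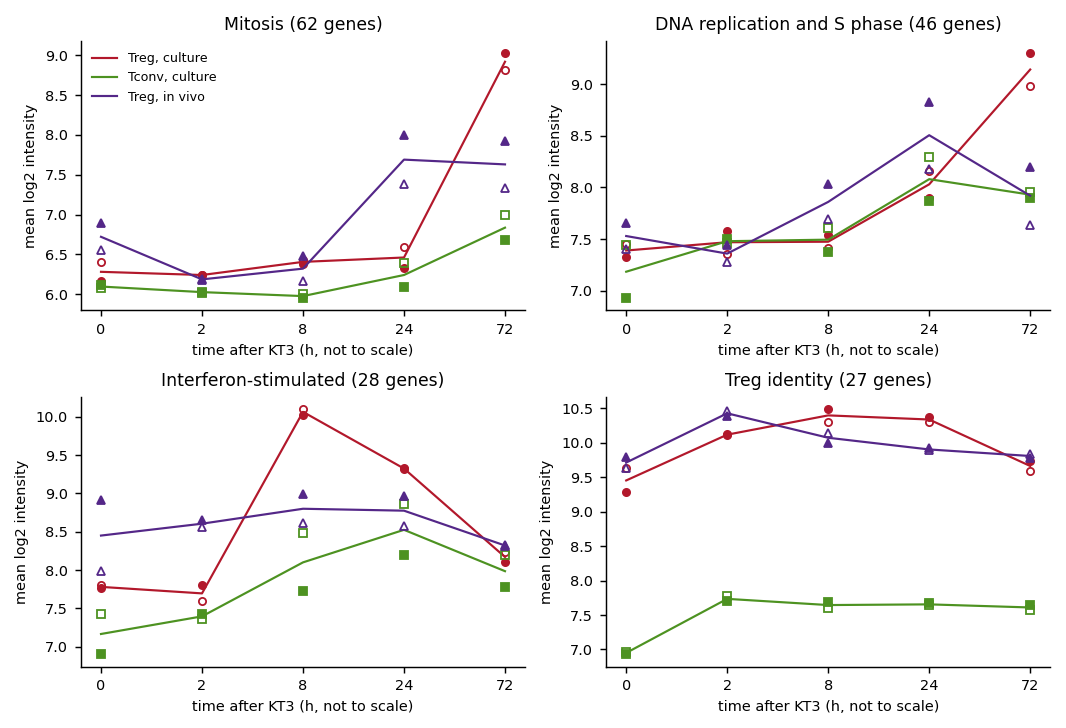
Mean log2 intensity of 4 gene lists at 0, 2, 8, 24 and 72 h (time points evenly spaced, not to scale) in Treg in culture (red circles), Tconv in culture (green squares) and Treg in vivo (purple triangles), with filled symbols for array 1, open symbols for array 2 and lines through the means. The mitosis genes of cultured Treg stay between 6.16 and 6.59 until 24 h and reach 9.03 and 8.81 at 72 h.

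Whether Tconv cultured under the same conditions made the same step was tested as the difference of the differences, Treg minus Tconv. It was called for 224 of the 12425 genes (1.8%), 194 with the more positive step in Treg (1.56%) and 30 with the more negative (0.241%). Mitosis genes made up a large share: 49 of 62 were called, all in the direction of the larger rise in Treg, with a median difference of 1.98. In Tconv the list had a median step of 0.54 with 9 genes called, where 34 of all genes were (0.274%), 22 of them higher (0.177%) and 12 lower (0.0966%). That Tconv count was 11 and 7 without array 1 and array 2 of Tconv at 72 h, and 4 and 22 without array 1 and array 2 of Tconv at 24 h. The means of the list were 9.03 and 8.81 at 72 h in Treg, against 6.68 and 6.99 at 72 h in Tconv. Hmmr was at 7.9 and 7.83 at 72 h and 4.04 and 4.45 at 24 h in Treg, against 4.47 and 5.07 at 72 h and 4.23 and 4.05 at 24 h in Tconv (3.0 ± 0.36, adjusted p = 0.000116). The motor Cenpe, which carries chromosomes along microtubules, was at 7.98 and 8.17 at 72 h and 4.87 on both arrays at 24 h in Treg, against 4.48 and 5.24 at 72 h and 4.92 and 4.51 at 24 h in Tconv (3.06 ± 0.52, adjusted p = 0.00147). The mean log2 intensity of the histones at 24 h was already higher in Tconv (8.64 and 8.19) than in Treg (7.32 and 7.59). At 72 h it was 8.96 and 8.71 in Tconv, against 9.60 and 9.24 in Treg. The Treg mean at 24 h also lay below that of Treg at 0 h (8.22 and 7.96). Of the replication genes 19 of 46 were called and of the histones 14 of 17, in the same direction. The call count was 88 without array 1 of Treg at 72 h, 99 without array 1 of Treg at 24 h, 130 and 147 without array 1 and array 2 of Tconv at 72 h, 176 and 147 without array 1 and array 2 of Tconv at 24 h, and 128 without the block.

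Among the more negative steps in Treg, Gpr83 was at 8.37 and 8.43 at 72 h and 11.41 and 11.17 at 24 h in Treg, against 7.26 and 6.92 at 72 h and 7.8 and 7.92 at 24 h in Tconv (-2.11 ± 0.31, adjusted p = 0.000392). Myb, a factor of proliferating progenitors, was at 8.53 and 8.73 at 72 h and 8.96 and 9.0 at 24 h in Treg, against 9.63 and 9.83 at 72 h and 7.71 and 8.14 at 24 h in Tconv (-2.15 ± 0.38, adjusted p = 0.0019). Here it was Tconv that rose. The chemokine receptor Cxcr4 was at 10.48 and 10.16 at 72 h and 11.16 and 10.85 at 24 h in Treg, against 11.21 and 11.08 at 72 h and 10.14 and 9.66 at 24 h in Tconv (-1.93 ± 0.34, adjusted p = 0.00173), a difference whose adjusted p was 0.0545 without the block. In Treg alone the step of Cxcr4 was not called (-0.68, adjusted p = 0.109), while both Tconv arrays were higher at 72 h than at 24 h. Interferon-stimulated genes gave no called difference in 28, with median steps of -0.92 in Treg and -0.59 in Tconv, which does not show that they act alike.

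The same step in Treg of injected mice was compared by the difference in culture minus in vivo, which was called for 405 genes (3.26%), 333 higher (2.68%) and 72 lower (0.579%). In vivo 18 genes were called in the step itself (0.145%), 10 higher (0.0805%) and 8 lower (0.0644%). Of the mitosis genes 54 of 62 had the larger rise in culture, with medians of 2.54 in culture and -0.06 in vivo. In vivo the list was high at both times, with means of 7.93 and 7.33 at 72 h, against 8.00 and 7.38 at 24 h. Nuf2 was at 9.74 and 9.31 at 72 h and 5.61 and 6.19 at 24 h in culture, against 8.13 and 7.41 at 72 h and 8.31 and 7.48 at 24 h in vivo (3.75 ± 0.39, adjusted p = 1.15e-06). Replication genes differed likewise in 34 of 46, with a median step of -0.56 in vivo. Gpr83 was at 8.37 and 8.43 at 72 h and 11.41 and 11.17 at 24 h in culture, against 10.42 and 10.6 at 72 h and 10.91 and 10.72 at 24 h in vivo (-2.58 ± 0.31, adjusted p = 7.06e-06). Cish was at 8.77 and 8.51 at 72 h and 10.52 and 10.35 at 24 h in culture, against 9.3 and 9.49 at 72 h and 8.75 and 8.91 at 24 h in vivo (-2.36 ± 0.31, adjusted p = 2.21e-05), so that the order of the times was opposite in the 2 settings. The in vivo step of Cish itself was not called. The chemokine receptor Ccr3 had 4.93 and 4.77 at 72 h and 5.9 on both arrays at 24 h in culture, against 7.56 and 7.14 at 72 h and 5.51 and 5.95 at 24 h in vivo (-2.66 ± 0.38, adjusted p = 5.13e-05).

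The in vivo arrays carried RNA of other cells unevenly. The mean log2 intensity of the B cell markers was 7.46 and 5.71 at 72 h, against 6.44 and 5.53 at 24 h, and that of the neutrophil markers 8.15 and 5.52, against 6.72 and 5.46. The array with the high values at 72 h, number 1, is labelled as sorted once and number 2 as sorted again. The count of called differences was 305 without array 1 and 261 without array 2 of in vivo 72 h and 246 and 381 without array 1 and array 2 of in vivo 24 h. It was 247 and 376 without array 1 and array 2 of 72 h in culture and 275 and 330 without those of 24 h. The part of these other cells in the differences was not tested, and all 12 genes named for this comparison were called without any 1 of the 8 arrays. In the step in vivo limma called 0 genes without array 1 of 72 h (334 at an unadjusted p under 0.05) and 0 without array 1 of 24 h (281), against 19 without array 2 of 72 h and 24 without array 2 of 24 h.

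**Figure D4:**
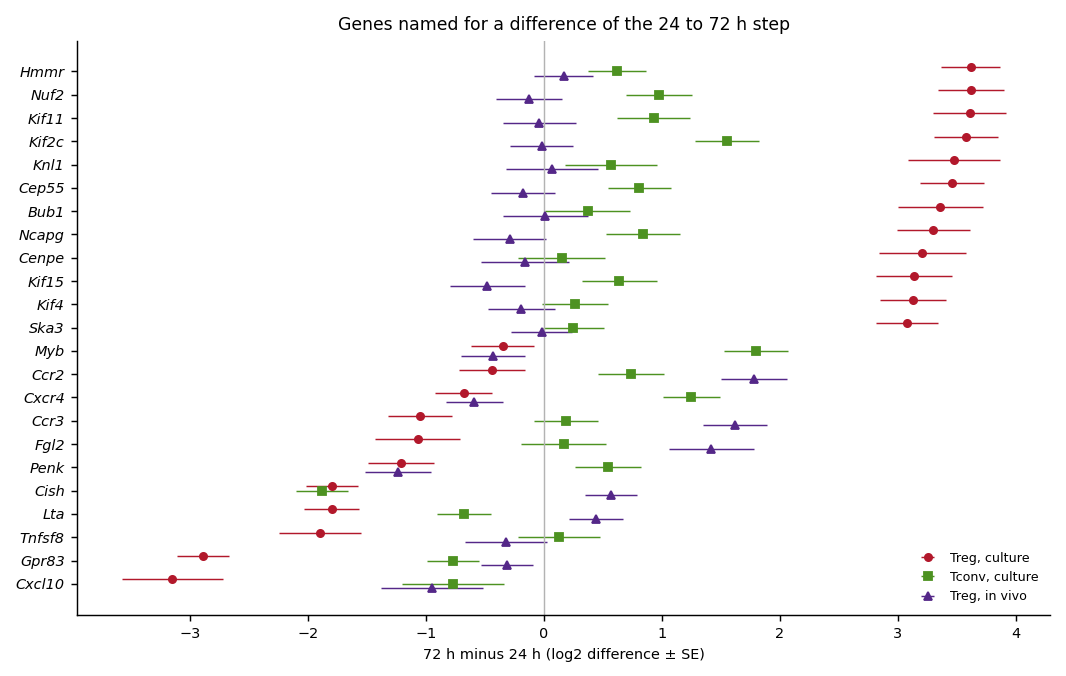
Difference of 72 h minus 24 h (log2, points, with bars of 1 SE) in Treg in culture (red circles), Tconv in culture (green squares) and Treg in vivo (purple triangles) for the 23 genes named for a difference of the step. The 12 division genes at the top lie between 3.08 and 3.62 in cultured Treg, and Gpr83 and Cxcl10 lie lowest in cultured Treg.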

How the data were processed

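RNA was measured on 42 arrays in 22 groups. Per the design text, the authors made the deposited values by RMA (background correction, normalization and summary of probes), and the submitters' processing notes name Affymetrix Power Tools and RMA. Tool versions were not stated in the labels or notes, and neither was whether RMA was run on every array at once. The deposited values are linear intensity values (4.8403 to 29756.3596) for 24922 transcript clusters, and their log2 was used here. In GEO's platform annotation 21425 clusters have 1 symbol, 1399 several and 2098 are unlisted, and only the first kind was named. Where a symbol had several clusters (921), the brightest on average stood for it. A gene was tested (12425) if it lay above the array's median on at least 2 arrays, and 7327 dim genes were left out.

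limma 3.58.1 (R 4.3.3) fitted 22 group means on all arrays, which share one estimate of the spread, with the array number within each setting as a block, and Benjamini-Hochberg adjustment ran over all genes tested. The Tconv step, the in vivo step and the 2 differences of steps were contrasts of the same model, so they share arrays with the Treg step. The number carries sex and age in culture per the labels. As a check, deviations of same-numbered Treg arrays at 72 and 24 h correlated at 0.09, and over 45 pairs of groups the median was 0.22 (28 over 0.1), so the data alone do not establish pairing. The block was kept because the comparison was defined by number. The fit was tested on simulated data.

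The gene lists and members were chosen with earlier results of these data known. Named were the 15 largest rises and falls that did not overlap, up to 4 called members per list and direction, the 6 largest differences of the step in each direction, and a few fixed genes. Predicted genes, Rik clones, small RNAs and receptor segments were left out. Alternatives were no block, quantile normalization, median centring, an offset of 16, other dim filters, other sets of arrays and leaving out each array. The number of arrays limits the precision. Tables and figures used Python 3.11.15, pandas 2.3.3, numpy 2.4.6 and matplotlib 3.10.9.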

Additional observations from a re-analysis of the deposited data

Results flagged for a closer look

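The step from 24 to 72 h of cultured Treg differed from that of cultured Tconv, by the test of the difference itself (limma, Treg minus Tconv, log2), in 12 named genes. More positive in Treg were Cenpe (3.06), Hmmr (3.0), Bub1 (2.99), Knl1 (2.91), Kif4 (2.87) and Ska3 (2.83), all of the spindle or kinetochore. More negative were Cxcl10 (-2.38), Myb (-2.15), Gpr83 (-2.11), Tnfsf8 (-2.03), Cxcr4 (-1.93) and Penk (-1.76). The calls of Cxcl10, Tnfsf8, Cxcr4 and Penk were lost without the block, with adjusted p-values of 0.135, 0.0745, 0.0545 and 0.0737.

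The step also differed between culture and in vivo (in culture minus in vivo) in 12 named genes. More positive in culture were Nuf2 (3.75), Kif11 (3.65), Cep55 (3.64), Kif15 (3.62), Ncapg (3.6) and Kif2c (3.6). More negative were the chemokine receptors Ccr3 (-2.66) and Ccr2 (-2.22), Gpr83 (-2.58), the secreted protein gene Fgl2 (-2.49), Cish (-2.36) and Lta (-2.24). Ccr2 was at 7.64 and 7.21 at 72 h and 7.93 and 7.8 at 24 h in culture, against 9.78 and 10.02 at 72 h and 7.52 and 8.72 at 24 h in vivo. Fgl2 was at 5.81 and 5.5 at 72 h and 6.79 and 6.66 at 24 h in culture, against 8.74 and 8.69 at 72 h and 7.09 and 7.5 at 24 h in vivo. In both the in vivo arrays of 72 h were the highest.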

How the results depend on the processing

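No called difference of a named gene changed direction under any alternative, though some that were not called did, such as Il7r (0.33, or -0.13 without array 2 of 24 h), and 62 of the 109 called genes among the 176 named kept the call in each alternative that tested them. The count of called genes in the Treg step (692) was 188 with the stricter dim filter (5008 genes tested, 47.9% of the calls higher, against 64.0%), 389 with the 20 in vitro arrays only (73.5% higher), 1199 without Tconv in culture 0 h array 1 (56.9% higher), 1559 without the 3 arrays of narrowest range (52.5% higher), and 286 to 516 with each of its 4 arrays left out. The count for Treg minus Tconv (224) was 33, 103, 369 and 517 under the same 4 settings, and 88 to 224 with each of its 8 arrays left out. The count for culture minus in vivo (405) was 72 with the stricter filter, 654 without the Tconv array, 863 without the 3 arrays, and 246 to 381 with each of its 8 arrays left out. Without the replicate block the 3 counts were 518, 128 and 312, and 14 of the named genes lost their call in the Treg step. The Tconv step (34) was 13 without the block, 52 with quantile normalization, 16 with the stricter filter, 3 with the 20 in vitro arrays, 115 without the Tconv array, 177 without the 3 arrays and 4 to 22 with its own arrays left out. The in vivo step (18) was 9 without the block or with median centring, 11 with no filter, 3 with the stricter filter, 55 without the Tconv array, 84 without the 3 arrays and 0 to 24 with its arrays left out. These last 2 sets of counts were added after seeing the data. With 1 array left in a group, it is assumed to vary like the other groups. The cause of the changes was not tested.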
